A study of Mus musculus with 8 samples.

Results

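The 39 genes described here encode liver enzymes that break down amino acids. They were chosen as a named list and matched by gene symbol, and all 39 were found among the 53816 gene IDs of the deposited files. RNA was sequenced from whole liver of 8 mice after bile duct ligation, an operation that blocks bile flow and injures the liver by cholestasis. The controls were 4 ligated mice with the genotype given as WT. The other 4 ligated mice carry the genotype label "LSEC Myc overexpression", that is, an overexpression of the transcription factor Myc in liver sinusoidal endothelial cells. No source used here gives the promoter that drives it, the age, sex or strain of the mice, or the time after surgery. Whether the 4 samples of a group were separate mice is taken from the label text on the design, so the spread between samples is read as spread between mice. The comparison asks how a change made in endothelial cells bears on the messenger RNA of these enzymes, which hepatocytes make.

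The liver is the main site at which surplus dietary amino acids are degraded. Each amino acid has its own chain of enzymes: an opening step that commits the molecule, often set by hormones such as glucocorticoids and glucagon, and later steps that pass the carbon to the citric acid cycle and the nitrogen to urea. Histidine and serine breakdown is strongest near the portal vein, while the branched chain amino acids leucine, isoleucine and valine are mostly transaminated outside the liver and only then oxidised there.

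Levels are given in TPM, the deposited unit, which is scaled for transcript length and for library size. Between 12442 and 13636 genes reached 1 TPM in a library, and 5.30 to 6.74 Gb of aligned bases, derived from the ratio of coverage to FPKM, lay behind each. Differences are Myc-labelled minus control on the log2(TPM + 1) scale, ± SE, with 4 libraries a group, tested with limma and adjusted by the Benjamini-Hochberg method over 13055 genes. Myc itself (ENSMUSG00000022346.15, chromosome 15, 61985391 to 61990374, mm10) measured 272, 207, 554 and 89.2 TPM across control replicates 1 to 4, and 339, 356, 25.6 and 249 TPM across Myc-labelled replicates 1 to 4, the order used for every list of values. It did not follow the labels (log2 difference -0.45 ± 0.95, two-sided exact permutation p = 0.714 over 70 assignments), so the libraries are called Myc-labelled and each direction rests on the label. Nothing in the labels says if transgene reads fall under this entry. Of all tested genes 35.5% had the lowest of their 8 values in Myc-labelled replicate 3 and 35.8% had the highest in Myc-labelled replicate 1.

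Because the labelled factor binds the E-box CACGTG, the 250 bases before the RefSeq start (build GRCm38.p6) were searched for it in the 32 enzymes that had a promoter entry, all but Cdo1, Cth, Gpt, Kynu, Mat1a, Sds and Sdsl. Only the windows of Cbs, at chr17:31637206-31637455 (minus strand), and Mccc2, at chr13:100015640-100015889 (minus strand), held it. The windows of Hal, at chr10:93488518-93488767 (plus strand), and Bhmt, at chr13:93637759-93638008 (minus strand), are shown beside them because these genes had the smallest p-values of the list. Letters in capitals mark the E-box, and each sequence reads 5′ to 3′ on the gene's strand.
Cbs: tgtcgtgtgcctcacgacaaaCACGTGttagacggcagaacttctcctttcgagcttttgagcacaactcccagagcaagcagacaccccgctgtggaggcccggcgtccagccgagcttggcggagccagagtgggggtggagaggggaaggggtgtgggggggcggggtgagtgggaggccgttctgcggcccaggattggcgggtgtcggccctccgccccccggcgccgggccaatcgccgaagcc
Mccc2: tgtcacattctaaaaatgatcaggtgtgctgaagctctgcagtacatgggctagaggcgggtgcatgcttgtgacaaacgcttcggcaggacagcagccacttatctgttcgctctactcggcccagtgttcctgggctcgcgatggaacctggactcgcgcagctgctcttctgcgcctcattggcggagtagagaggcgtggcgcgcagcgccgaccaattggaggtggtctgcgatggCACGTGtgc
Hal: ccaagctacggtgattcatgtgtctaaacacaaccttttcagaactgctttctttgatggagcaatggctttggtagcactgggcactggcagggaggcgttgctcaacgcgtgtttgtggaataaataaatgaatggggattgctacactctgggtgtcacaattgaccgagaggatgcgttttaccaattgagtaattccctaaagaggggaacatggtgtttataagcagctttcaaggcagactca
Bhmt: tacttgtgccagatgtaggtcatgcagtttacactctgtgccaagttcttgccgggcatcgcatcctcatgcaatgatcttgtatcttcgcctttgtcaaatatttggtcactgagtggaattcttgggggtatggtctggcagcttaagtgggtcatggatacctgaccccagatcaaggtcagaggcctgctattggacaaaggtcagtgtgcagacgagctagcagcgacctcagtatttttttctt

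In Cbs the E-box spans bases 229 to 224 before the start, and in Mccc2 bases 9 to 4. Of the 35 windows of these 32 enzymes 5.71% held an E-box, against 6.02% of 32817 mouse windows of the same length. The other motifs were searched on both strands as well. A site for HNF4, a nuclear receptor of hepatocyte identity (CAAAGTCCA), was in the window of Aadat alone, while 0.384% of all windows held one. No window of these enzymes held the HNF1 motif GTTAATNATTAAC, the C/EBP motif TTNCGCAA, the cAMP response element TGACGTCA, the bile acid receptor repeat AGGTCANTGACCT or the glucocorticoid receptor motif GNACANNNTGTNC. Among all windows these were found in 0.00914%, 0.670%, 1.55%, 0.00609% and 0.387%. A match in letters is a description, and no match says only that these letters are not in this window.

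Together the 39 enzymes took 2.88% to 3.05% of all TPM in the controls. In Myc-labelled replicates 1 to 4 they took 2.30%, 2.97%, 2.43% and 1.90%. Replicate 2 thus lay within the control range, and the other 3 lay below it. The summed level was 29701 ± 754 TPM (SD, n = 4) in the controls and 23992 ± 4407 TPM (SD, n = 4) in the Myc-labelled libraries, a percent difference of -19.2, and it is given as a description without a test. In whole tissue fewer hepatocytes and less RNA per hepatocyte cannot be told apart. Enzymes of methionine and cysteine metabolism made up most of both sums. By single gene, 7 enzymes averaged at least 1000 TPM over the 8 libraries, 23 lay between 100 and 1000 TPM and 9 below 100 TPM.

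No enzyme passed the test of a difference between the groups. All 39 passed the filter of a mean of 1 TPM, 0 of 39 passed an adjusted p of 0.05, and the smallest adjusted p was 0.9998. Over all genes the same test called 0 of 13055 (0%). The log2 difference was below 0 for 34 of 39 enzymes (87.2%), where 42.0% of all tested genes were below 0, and the enzymes' median was -0.19 beside 0.04 for all tested genes. Reads may be shared in 12 of the 39 enzymes, Afmid, Kmo, Hpd, Gstz1, Sds, Prodh, Bhmt, Cth, Csad, Bckdha, Bckdhb and Mccc1, which overlap another gene with a mean of at least 1 TPM. The differences ran from -0.65 for Bhmt to 0.30 for Got1. For 32 enzymes the 95% interval lay wholly within a 2-fold change in either direction, and its median half-width was 0.51 log2 units. At an unadjusted p under 0.05, 2 of 39 were lower, Hal and Bhmt, and 0 of 39 were higher, against 0.597% and 1.26% of all tested genes. The count below 0 was 27 of 39 without Myc-labelled replicate 3, with 28.4% of all tested genes below 0 in that fit. With array weights, which give less weight to libraries that deviate more from their group, it was 23 of 39, with 42.7% of all tested genes below 0, and the enzymes' median was -0.020. With median-of-ratios scaling it was 35 of 39, where 50.03% of all tested genes were below 0. The 2 enzymes lower at an unadjusted p under 0.05 became 0 without control replicate 3, control replicate 4 or Myc-labelled replicate 4, where 0.781%, 0.361% and 0.414% of all tested genes were lower at that p. They became 1 without control replicate 1, control replicate 2 or Myc-labelled replicate 3, beside 0.910%, 0.903% and 0.549% of all tested genes. With Myc-labelled replicate 2 left out there were 5, beside 0.882% of all tested genes.

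**Figure D1:**
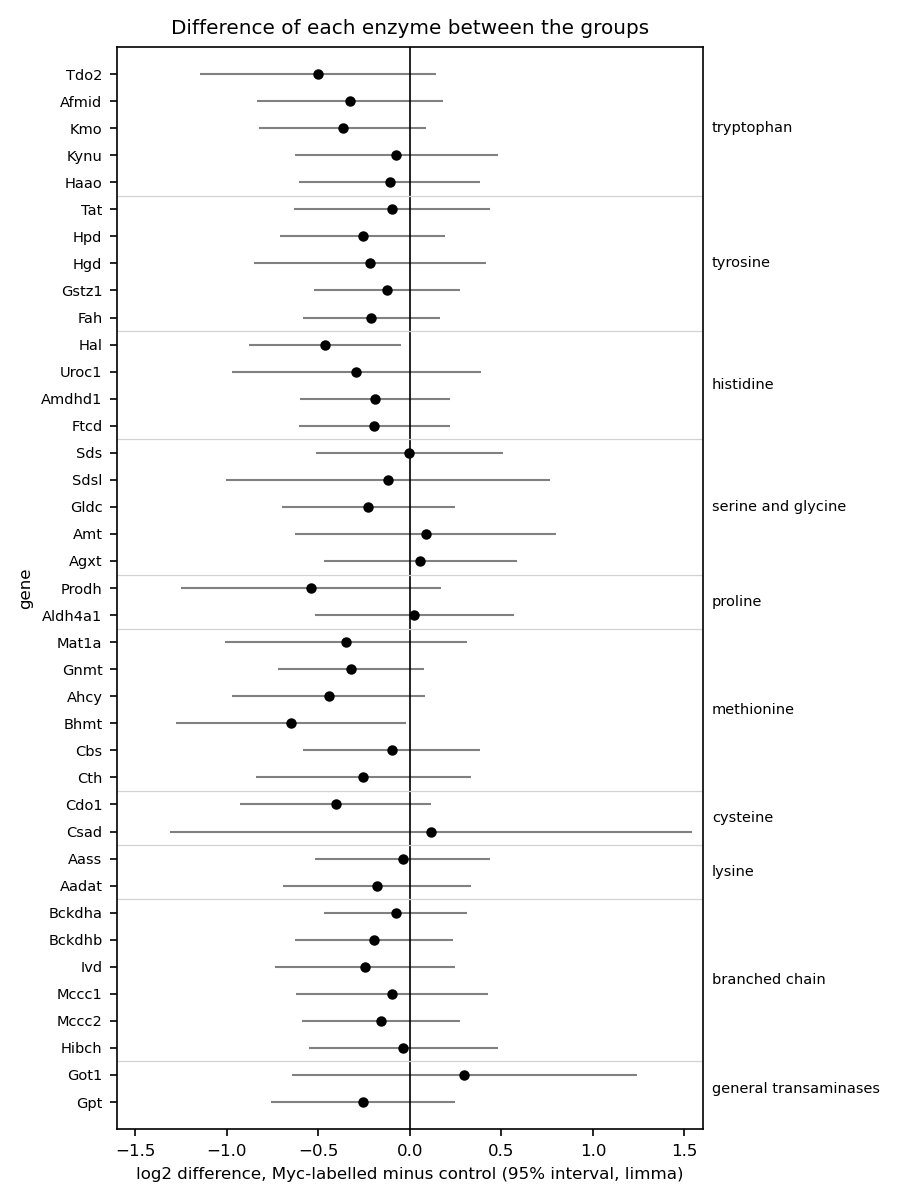
Log2 difference of each of the 39 enzymes, Myc-labelled minus control, on the log2(TPM + 1) scale (x axis), by gene and pathway (y axis). Points are limma estimates and bars 95% intervals. Of the 39 points 34 lie left of 0, and only the bars of Hal and Bhmt stay clear of 0, before adjustment.

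Histidine is broken down in a fixed order by Hal, Uroc1, Amdhd1 and Ftcd, and all 4 log2 differences were below 0 (median -0.24). Hal (ENSMUSG00000020017.14, chromosome 10, 93488768 to 93519304, mm10) is the histidine ammonia-lyase that opens the pathway. It stood at 169.5, 184, 179 and 211 TPM across the controls and at 150.2, 152, 144 and 99.0 TPM across the Myc-labelled libraries. Hal was the only enzyme of the 39 whose groups did not overlap, with every control above every Myc-labelled library, whereas 0.322% of all tested genes were separated in this direction. None of the 39 was separated in the other direction (0 of 39), as 0.935% of all tested genes were. The means were 186 ± 17.8 and 136 ± 25.1 TPM (SD, n = 4 each), and the log2 difference was -0.46 ± 0.19 (95% interval -0.88 to -0.05, limma unadjusted p = 0.0325, adjusted p = 0.9998). Myc-labelled replicate 4 was the lowest library, and without it the log2 difference was -0.32.

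Uroc1, the urocanase of the following step, stood at 97.0, 154, 251 and 241 TPM across the controls and at 172, 172, 99.9 and 135 TPM across the Myc-labelled libraries. Its lowest value was in control replicate 1, and the groups overlapped. For Uroc1 the log2 difference was -0.29 ± 0.31, and it ran from -0.57 without control replicate 1 to -0.12 without control replicate 3. Amdhd1, which opens the imidazolone ring, ranged from 104 TPM in Myc-labelled replicate 3 to 169 TPM in Myc-labelled replicate 2. Ftcd, which hands the one-carbon unit to folate, stood at 225, 265, 352 and 278 TPM across the controls and at 238, 245, 273 and 213 TPM across the Myc-labelled libraries. Control replicate 3 was its highest library, and 3 of the 4 Myc-labelled values lay within the control range.

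Methionine enters the cycle through Mat1a, which makes S-adenosylmethionine, and Gnmt, which uses that methyl donor to methylate glycine. Ahcy then splits S-adenosylhomocysteine into homocysteine, which Bhmt methylates back to methionine with betaine, or which Cbs and Cth carry on to cysteine. All 6 log2 differences were below 0, with a median of -0.34. Summed over the 6 genes the level was 15432, 15200.1, 16129 and 14866 TPM in control replicates 1 to 4 and 11367, 14488, 11469 and 8555 TPM in Myc-labelled replicates 1 to 4. The 2 groups of sums did not overlap, although the gap between the lowest control and Myc-labelled replicate 2 was small beside the spread within the Myc-labelled group. The means were 15407 ± 535 and 11470.0 ± 2423 TPM (SD, n = 4 each), a percent difference of -25.6. Each of the 6 genes alone overlapped between the groups. So did the mean centred log2(TPM + 1) of the 6 genes, at 0.26 in Myc-labelled replicate 2 and 0.25 in the highest control. No other pathway list had separated sums, and the separation was not tested.

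Bhmt (ENSMUSG00000074768.6, chromosome 13, 93616675 to 93637961, mm10) had the highest mean level of the 39 and stood at 6036, 3167, 7230.2 and 4992 TPM across the controls and at 4192, 4085, 2326 and 2856 TPM across the Myc-labelled libraries. Control replicate 2 lay among the Myc-labelled values, and the other 3 controls lay above all of them. The log2 difference was -0.65 ± 0.29 (95% interval -1.28 to -0.02, limma unadjusted p = 0.0441, adjusted p = 0.9998). Mat1a stood at 3441, 5907, 3351 and 3847 TPM across the controls and at 2869, 4199.6, 4482 and 1839 TPM across the Myc-labelled libraries. Its highest value was in control replicate 2 and its lowest in Myc-labelled replicate 4, so the groups overlapped widely. Its log2 difference was -0.35 ± 0.30, and it was -0.17 without the first of these libraries, -0.09 without the other and -0.16 with array weights.

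Gnmt was steadier in the controls, at 3167, 2887, 2814 and 3228 TPM, than in the Myc-labelled libraries, at 2186, 3095, 2191 and 2300.2 TPM. Myc-labelled replicate 2 lay within the control range and the other 3 below it (log2 difference -0.32 ± 0.18, which was -0.12 with array weights and -0.21 with quantile normalization). Ahcy stood at 1994, 2170.4, 1558 and 1649.8 TPM across the controls and at 1416, 1686, 1597 and 851 TPM across the Myc-labelled libraries, with Myc-labelled replicate 4 far below the rest (log2 difference -0.44 ± 0.24, which was -0.22 without that library and -0.25 with array weights).

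Cbs, the first enzyme of transsulfuration and one of the E-box genes shown above, stood at 157, 192, 247 and 169 TPM across the controls and at 151, 244, 146 and 176 TPM across the Myc-labelled libraries. Cth, the cystathionine lyase, ranged from 534 to 1178 TPM. For both, the lowest value was in a Myc-labelled library and the groups overlapped, with log2 differences of -0.10 ± 0.22 for Cbs and -0.25 ± 0.27 for Cth. On leaving out 1 library these ran from -0.26 without Myc-labelled replicate 2 to 0.03 without control replicate 3 for Cbs, and from -0.50 without Myc-labelled replicate 2 to -0.12 without Myc-labelled replicate 4 for Cth. The level of Cth may hold reads of Gm43314, which overlaps it on the same strand.

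Cysteine leaves through Cdo1, the dioxygenase, and Csad, the decarboxylase on the way to taurine, which the liver joins to bile acids. Cdo1 stood at 3513, 3051, 2369.6 and 2834 TPM across the controls and at 2476, 2666, 2516 and 1409.6 TPM across the Myc-labelled libraries. Control replicate 1 was highest and Myc-labelled replicate 4 lowest, at well under the other 7. The log2 difference was -0.41 ± 0.24, and it was -0.19 without Myc-labelled replicate 4 and -0.23 with array weights. Csad was the most variable of the 39 enzymes, at 217, 183, 28.9 and 111 TPM across the controls and at 131, 179, 64.4 and 118 TPM across the Myc-labelled libraries. Its highest and lowest values were both controls, replicates 1 and 3, 7.51-fold apart. The log2 difference was accordingly imprecise, 0.12 ± 0.62 with a 95% interval of -1.31 to 1.54, and ran from -0.50 without control replicate 3 to 0.45 without control replicate 1. With array weights it was 0.81.

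**Figure D2:**
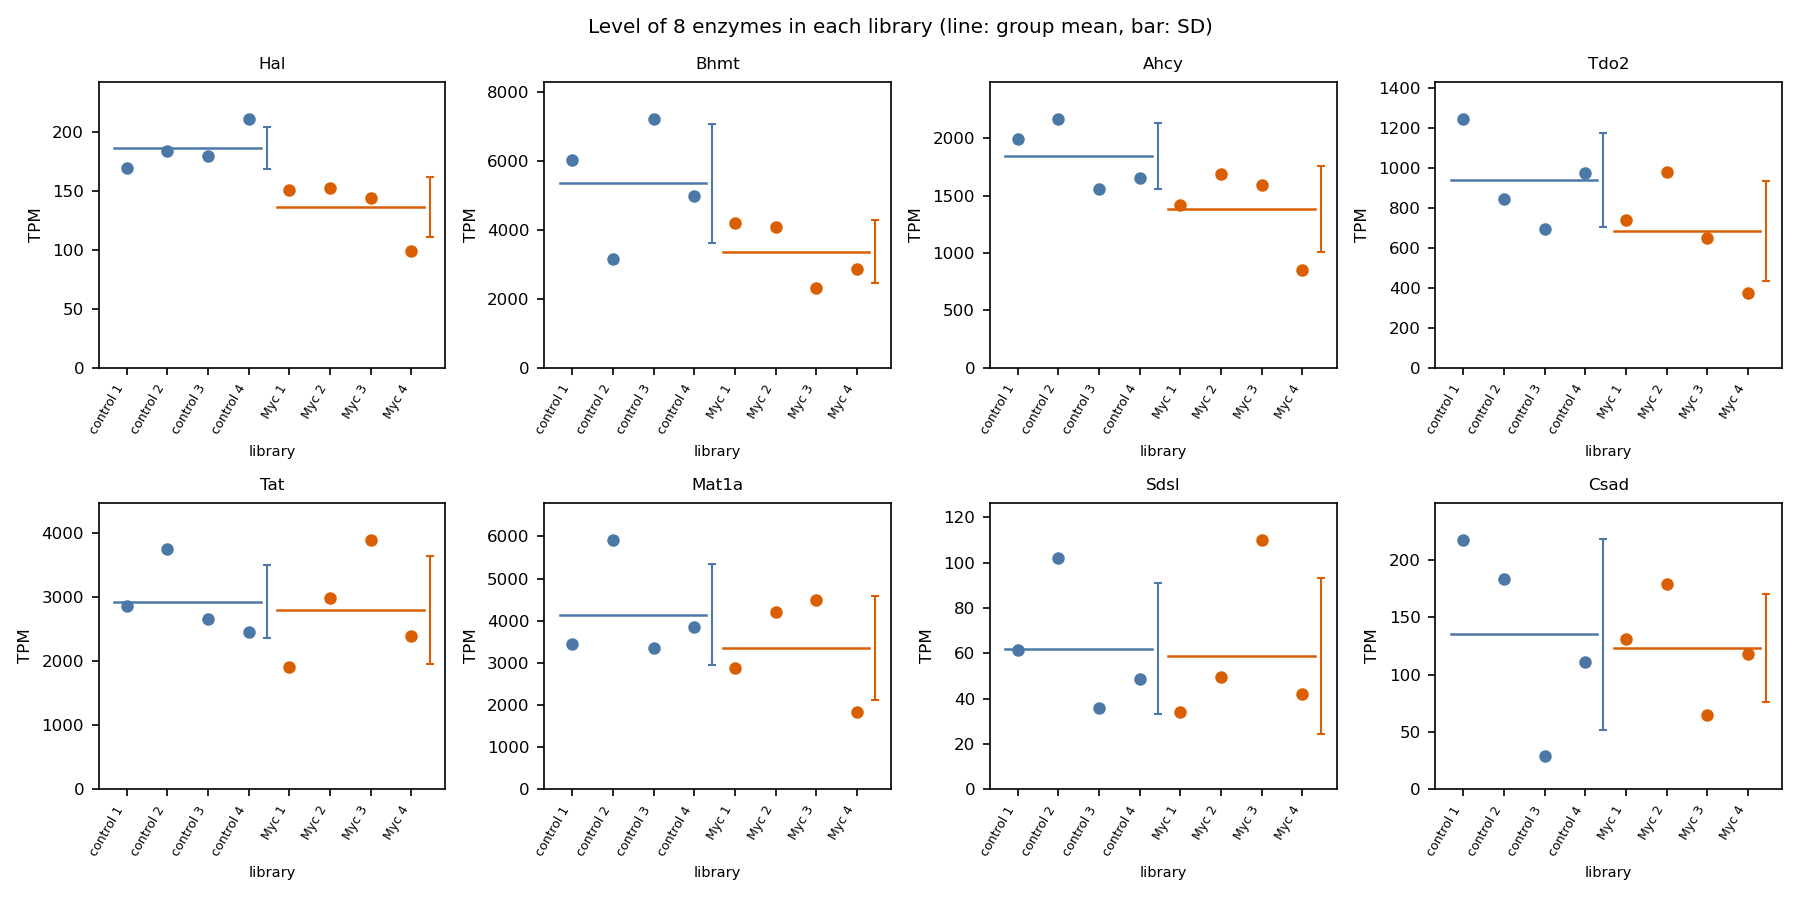
TPM of 8 enzymes (y axes, from 0) in the 4 control and 4 Myc-labelled libraries (x axes), with lines at the group means and bars for the SD. Hal separates the groups, Bhmt, Ahcy and Tdo2 overlap, Tat, Mat1a and Sdsl are high in control replicate 2 and Myc-labelled replicate 3, and Csad ranges from 28.9 to 217 TPM within the controls.

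Tdo2 opens the ring of tryptophan to give formylkynurenine, Afmid turns that into kynurenine, and Kmo, Kynu and Haao carry it on towards nicotinamide nucleotides. All 5 log2 differences were below 0 (median -0.33). Tdo2 stood at 1245, 845, 692 and 974 TPM across the controls and at 738, 982, 647 and 374 TPM across the Myc-labelled libraries. Control replicate 1 was highest and Myc-labelled replicate 4 lowest, 3.33-fold apart, with the other 6 libraries overlapping. For Tdo2 the log2 difference was -0.50 ± 0.29, and it was -0.24 without Myc-labelled replicate 4 and -0.14 with array weights. Kmo, the monooxygenase, stood at 120.0, 106, 140.1 and 136 TPM across the controls and at 120.0, 108, 67.5 and 99.1 TPM across the Myc-labelled libraries. Myc-labelled replicate 3 alone was far below the controls (log2 difference -0.37 ± 0.21, which was -0.20 without it).

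Haao, which makes the quinolinate precursor, stood at 259, 190.0, 282 and 295 TPM across the controls and at 212, 269, 174 and 303 TPM across the Myc-labelled libraries. Both its lowest and its highest value were Myc-labelled (log2 difference -0.11 ± 0.22, which ran from -0.25 without control replicate 2 to 0.03 without Myc-labelled replicate 3). Afmid, the formamidase, ranged from 34.6 to 74.6 TPM and Kynu, the kynureninase, from 37.4 to 84.1 TPM. Their highest values were in control replicates 3 and 1, and the groups overlapped. Afmid overlaps Gm20708 on the same strand and Tk1 on the opposite strand, so its level may hold reads of both.

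In tyrosine breakdown Tat removes the amino group, Hpd and Hgd oxidise the ring, and Gstz1 and Fah finish with fumarate and acetoacetate. All 5 log2 differences were below 0, with a median of -0.21. Tat stood at 2857, 3749.5, 2663 and 2459 TPM across the controls and at 1915, 2994, 3889 and 2397 TPM across the Myc-labelled libraries. Its highest value was in Myc-labelled replicate 3 and its lowest in Myc-labelled replicate 1 (log2 difference -0.10 ± 0.24, which turned to 0.03 without control replicate 2 and 0.07 without Myc-labelled replicate 1). Hpd, the dioxygenase, stood at 1921, 1537, 1349 and 1786 TPM across the controls and at 1315, 1830.5, 1211 and 1192 TPM across the Myc-labelled libraries. Myc-labelled replicate 2 lay with the higher controls and the other 3 Myc-labelled values lay below every control. For Hpd the log2 difference was -0.26 ± 0.21, and it was -0.40 without Myc-labelled replicate 2 and 0.0035 with array weights.

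Hgd, the homogentisate oxidase, ranged from 143 TPM in Myc-labelled replicate 3 to 380.3 TPM in Myc-labelled replicate 2. Gstz1 and Fah were among the steadiest of the 39, with a highest to lowest ratio of 1.47 and 1.44. Over the summed pathway the means were 6017 ± 456 TPM among controls and 5472 ± 901 TPM among Myc-labelled libraries (SD, n = 4 each), a smaller mean difference than the spread of the Myc-labelled group.

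The branched chain keto acids are decarboxylated by a complex with Bckdha and Bckdhb, and Ivd, Mccc1 and Mccc2 take leucine further while Hibch serves valine. Their summed level was close together in the controls, at 507, 506, 529.6 and 519 TPM, a SD of 11.0 TPM. In Myc-labelled replicates 1 to 4 the sum was 538, 556, 357 and 441 TPM. Replicates 1 and 2 lay above all controls and replicates 3 and 4 below them, so the Myc-labelled SD was 92.6 TPM. All 6 log2 differences were below 0, but the median was only -0.13, and without Myc-labelled replicate 3 those of Mccc1, Mccc2 and Hibch were above 0, at 0.16, 0.02 and 0.22.

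Bckdhb stood at 134, 136, 133 and 138 TPM across the controls and at 135, 144, 82.5 and 120.0 TPM across the Myc-labelled libraries, and Myc-labelled replicate 3 was the library that stood apart. Bckdha, the partner subunit, stood at 182, 166, 148 and 178 TPM across the controls and at 178, 184, 149 and 131 TPM across the Myc-labelled libraries. It had the smallest highest to lowest ratio of the 39 enzymes, 1.41. Ivd, the isovaleryl-CoA dehydrogenase, stood at 82.0, 105, 136 and 103 TPM across the controls and at 108, 109, 64.8 and 78.7 TPM across the Myc-labelled libraries, with its lowest value again in Myc-labelled replicate 3. Mccc2, a carboxylase subunit and the other E-box gene, stood at 43.4, 42.1, 45.2 and 36.5 TPM across the controls and at 44.5, 43.2, 25.3 and 39.7 TPM across the Myc-labelled libraries. In 5 of the 6 genes of this pathway that library held the lowest of the 8 values.

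Serine and glycine showed no shared direction, with 3 log2 differences below 0 and 2 above it. Sds, the serine dehydratase, stood at 519, 969.9, 775 and 630.1 TPM across the controls and at 532, 811, 722 and 780.5 TPM across the Myc-labelled libraries. Its means were 724 ± 195 and 711 ± 125 TPM (SD, n = 4 each), and the 95% interval of its log2 difference was -0.51 to 0.51. Agxt, which removes glyoxylate, stood at 140.2, 137, 193 and 159 TPM across the controls and at 160.1, 206, 103 and 204 TPM across the Myc-labelled libraries, so that the Myc-labelled values included both the lowest and the 2 highest. Gldc, the decarboxylase of the glycine cleavage system, stood at 104, 110.4, 166 and 114 TPM across the controls and at 142, 93.0, 97.8 and 89.4 TPM across the Myc-labelled libraries, and control replicate 3 was its highest library. Amt, its aminomethyl partner, had the lowest mean of the 39 enzymes, 19.6 TPM. Sdsl, a paralogue of Sds described here because of its values, stood at 61.7, 102, 35.6 and 48.5 TPM across the controls and at 34.0, 49.4, 109.9 and 42.0 TPM across the Myc-labelled libraries. Control replicate 2 and Myc-labelled replicate 3 were the only libraries above 100 TPM.

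For proline, Prodh makes the opening oxidation and Aldh4a1 completes the conversion to glutamate. Prodh stood at 158, 223, 226 and 239.8 TPM across the controls and at 157, 231, 166 and 70.4 TPM across the Myc-labelled libraries, with Myc-labelled replicate 4 below every other library (log2 difference -0.54 ± 0.32, which was -0.20 without that library and -0.30 with array weights). Aldh4a1 stood at 85.9, 122, 173 and 138 TPM across the controls and at 146, 152, 89.1 and 135 TPM across the Myc-labelled libraries, and its lowest libraries were control replicate 1 and Myc-labelled replicate 3. For lysine, Aass, the opening enzyme, stood at 122, 206, 155 and 163 TPM across the controls and at 158, 201, 118 and 153 TPM across the Myc-labelled libraries. Its highest value was in control replicate 2 and its lowest in Myc-labelled replicate 3. Aadat, the aminoadipate aminotransferase, stood at 79.8, 51.7, 52.6 and 51.3 TPM across the controls and at 64.2, 66.3, 42.2 and 37.1 TPM across the Myc-labelled libraries, and only control replicate 1 reached above 70 TPM.

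Of the general transaminases, Got1, which links aspartate to oxaloacetate, stood at 376, 657, 245 and 276 TPM across the controls and at 263, 963, 350.3 and 431 TPM across the Myc-labelled libraries. Myc-labelled replicate 2 was 3.93-fold above control replicate 3, and the log2 difference was 0.30 ± 0.42. It ran from -0.08 without that library to 0.59 without control replicate 2, and was 1.02 with array weights. Gpt, the alanine transaminase, stood at 287, 367, 462 and 482 TPM across the controls and at 325, 424, 335 and 250.0 TPM across the Myc-labelled libraries. Its groups overlapped, and its highest libraries were control replicates 3 and 4.

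**Figure D3:**
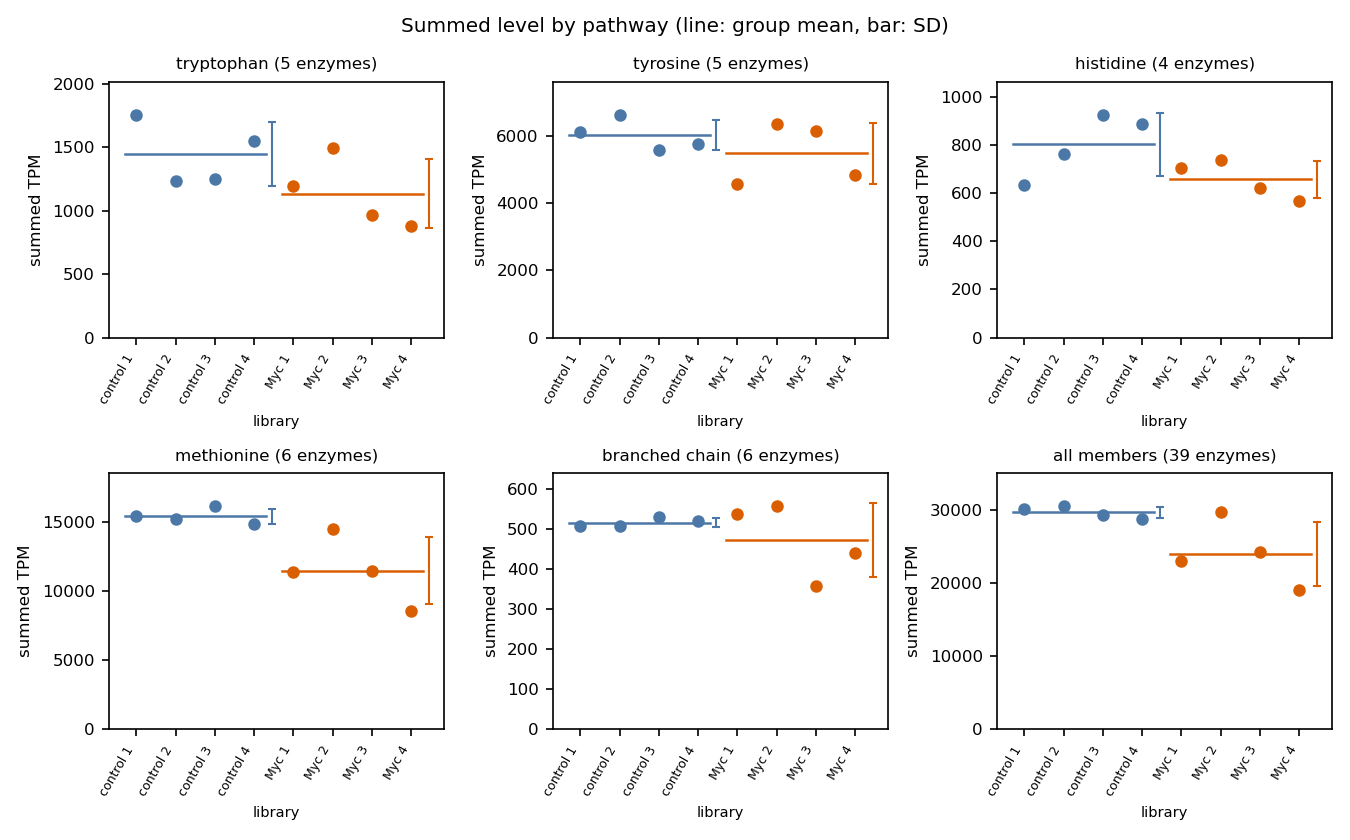
Summed TPM (y axes, from 0) of the enzymes of 5 pathways and of all 39 enzymes, in each of the 8 libraries (x axes), with lines at the group means and bars for the SD. Only the methionine sums of the groups do not overlap, and the branched chain sums are close together in the controls and apart in the Myc-labelled libraries.

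Set side by side over all 8 libraries, the pathways did not share 1 order of libraries. Each library was scored by the mean of log2(TPM + 1) over a pathway's genes, minus each gene's mean over the 8 libraries. For tryptophan the scores were 0.23, -0.17, 0.18 and 0.31 in control replicates 1 to 4 and 0.00, 0.19, -0.49 and -0.26 in Myc-labelled replicates 1 to 4. For methionine they were 0.10, 0.20, 0.25 and 0.16 and -0.25, 0.26, -0.19 and -0.53. Myc-labelled replicate 3 was therefore lowest for tryptophan and Myc-labelled replicate 4 for methionine.

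The histidine scores were -0.19, 0.11, 0.33 and 0.32 in the controls and -0.01, 0.07, -0.28 and -0.34 in the Myc-labelled libraries, lowest in replicate 4 as for methionine. The branched chain scores were 0.03, 0.02, 0.16 and 0.06 and 0.17, 0.20, -0.59 and -0.05, lowest in replicate 3, as were those of tyrosine, at 0.07, 0.06, 0.10 and 0.13 and -0.18, 0.22, -0.26 and -0.14. Myc-labelled replicate 2 was the highest of the 8 libraries for tyrosine, methionine and branched chain enzymes. The spread from lowest to highest library was 0.48 log2 units for tyrosine, 0.67 for histidine, 0.79 for methionine and branched chain and 0.80 for tryptophan.

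Myc-labelled replicate 3 held the lowest of the 8 values for 16 of the 39 enzymes (41.0%) and Myc-labelled replicate 4 for 15 (38.5%). Over all tested genes these shares were 35.5% and 11.7%. The first library is thus low over genes in general, with a median of -0.21 for all tested genes and -0.31 for the enzymes on the centred log2 scale. In the other the median was 0.03 for all tested genes and -0.22 for the enzymes. Without Myc-labelled replicate 4 the percent difference of the enzymes' summed level was -13.7. Leaving out Myc-labelled replicate 2 instead gave -25.6.

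**Figure D4:**
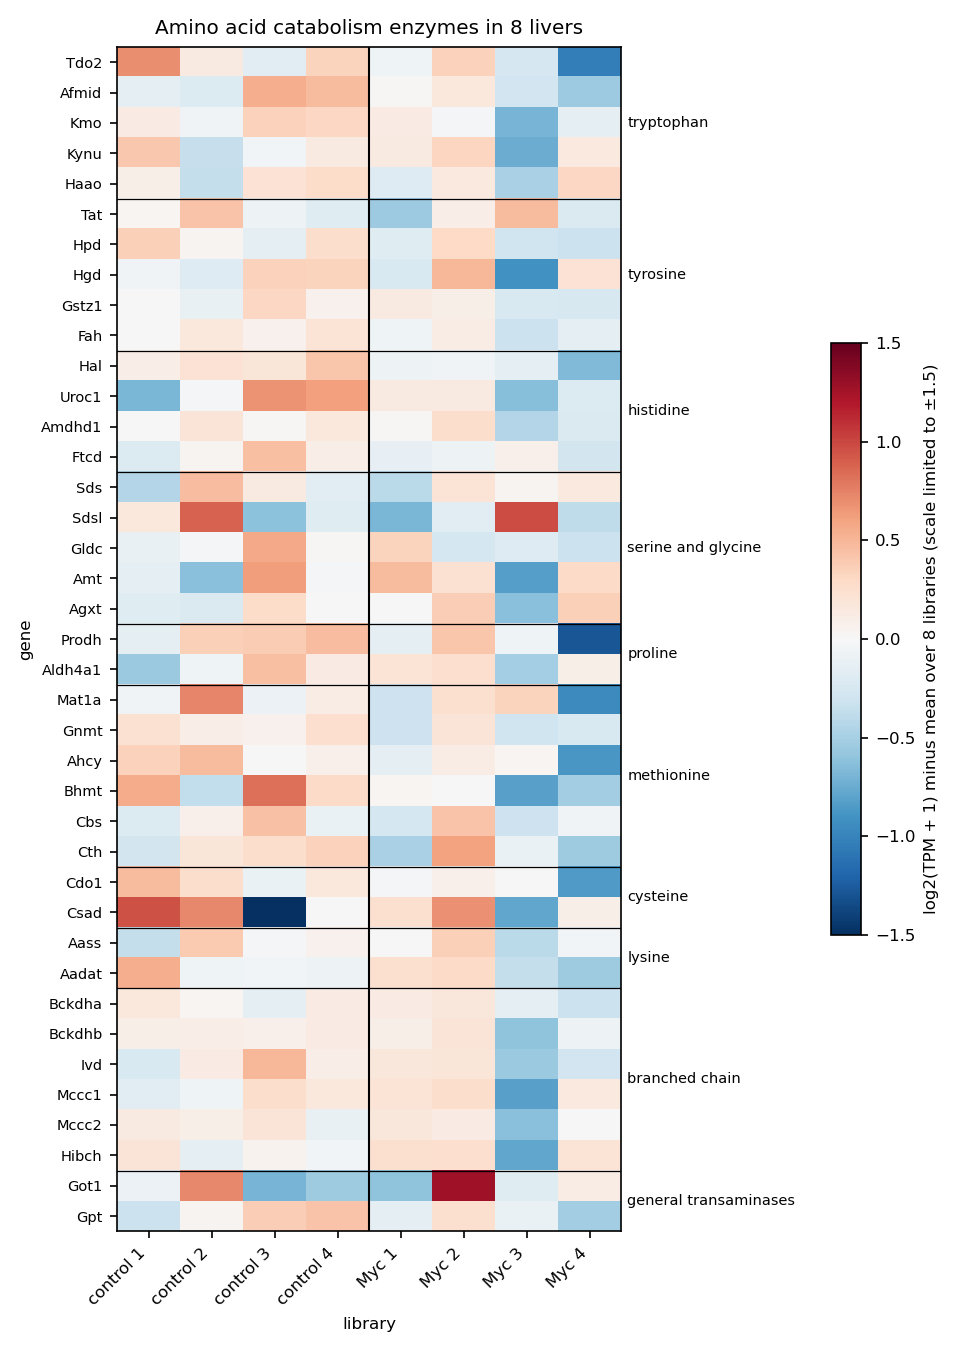
Centred log2(TPM + 1) of the 39 enzymes (rows, by pathway) in the 8 libraries (columns, controls left of the line). Red is above and blue below each gene's mean over the libraries, and the colour scale is limited to ±1.5. Myc-labelled replicate 3 is blue across the branched chain rows, replicate 4 is blue for Tdo2, Hal, Prodh, Mat1a, Ahcy and Cdo1, and Sdsl is red in control replicate 2 and Myc-labelled replicate 3.

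Control replicate 2 and Myc-labelled replicate 3 were the most alike pair of libraries over the 39 enzymes (Pearson r = 0.66 across genes on the centred scale, which are not independent replicates), although they carry different labels. Over all tested genes the r of this pair was 0.12, near the top of a range of -0.45 to 0.14 over the 28 pairs. The likeness of this pair was thus weak over all tested genes, and whether it is particular to the enzymes was not tested. The next pair over the enzymes, control replicates 3 and 4, had 0.42. Centring over 8 libraries pulls such values below 0, and for the enzymes the range over the 28 pairs was -0.69 to 0.66. Of 5 ratios of enzymes, all chosen after the values were seen, 3 were highest in these libraries and 2, Sdsl to Sds and Tdo2 to Haao, were not. The ratio of Tat to Hgd was 15.9 in control replicate 2 and 27.2 in Myc-labelled replicate 3, and 7.24 to 11.0 in the other 6 libraries. The ratio of Mat1a to Bhmt was 1.87 and 1.93 in these libraries and 0.464 to 1.03 in the others. The ratio of Sdsl to Sds was 0.105 in control replicate 2 and 0.152 in Myc-labelled replicate 3, with control replicate 1 between them at 0.119. Without both libraries 28 of 39 log2 differences were below 0, with 29.2% of all tested genes below 0 in that fit, and 0 of 39 passed the test.

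The markers of hepatocytes and other cells were read in the same libraries. Hepatocyte markers were abundant in every library, with 11 of 12 listed genes matched and a sum of 108285 to 151710 TPM among controls and 93159 to 126573 TPM among Myc-labelled libraries. Alb alone gave 41497 to 95736 TPM of these sums. Without Alb they were 50021 to 66788 TPM among controls and 46341 to 73816 TPM among Myc-labelled libraries, highest in Myc-labelled replicate 3. In that library Fga and Fgb had their highest values, 21450 and 11113 TPM. Apoh, Rbp4, Asgr1 and F2 had their lowest values there, and the other matched genes had neither extreme there. Of the 11 matched genes 8 had a log2 difference below 0 (median -0.15), and 0 passed the test. Their scores were 0.19, 0.10, 0.04 and -0.07 in the controls and -0.13, 0.06, -0.04 and -0.15 in the Myc-labelled libraries, so Myc-labelled replicates 1 and 4 were lowest. Of 8 periportal hepatocyte genes 7 were below 0, with sums of 12128 to 14289 and 9461 to 14515 TPM. Of 8 pericentral genes 6 were below 0, with sums of 1623 to 5400 and 1865 to 3904 TPM. Cyp2e1 alone gave 4682 of the 5400 TPM in control replicate 1. Without Cyp2e1 the pericentral sums were 238 to 1160 TPM among controls and 160 to 890 TPM among Myc-labelled libraries.

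Neutrophil markers summed to 14.5 to 70.2 TPM among controls and 26.8 to 160.3 TPM in the Myc-labelled libraries. The highest sum was in Myc-labelled replicate 4, and all 7 tested genes of this list of 8 had a log2 difference above 0, with 0 past the test. At an unadjusted p under 0.05 there were 2, beside 1.26% of all tested genes higher at that p. Both were named after their values were seen and had low levels. Il1r2, a decoy receptor, ranged from 0.54 to 6.85 TPM (log2 difference 1.16 ± 0.35, limma unadjusted p = 0.00705). Mmp9, a protease, ranged from 0.94 to 6.77 TPM (log2 difference 0.90 ± 0.32, limma unadjusted p = 0.0184). Its groups did not overlap, at 1.34 TPM in the highest control and 1.45 TPM in the lowest Myc-labelled library. Of all tested genes 0.935% were separated in this direction. Stellate and myofibroblast markers, 7 of 8 above 0, summed to 172 to 347 and 222 to 625 TPM, and cholangiocyte markers, 5 of 6 tested above 0, to 111 to 336 and 133 to 979.7 TPM. Dcn, the stellate marker below 0, gave 142 to 368 TPM of the stellate sums. Without Dcn they were 24.1 to 115 TPM among controls and 33.5 to 257 TPM among Myc-labelled libraries. The highest stellate sum was in Myc-labelled replicate 1 and the highest cholangiocyte sum in Myc-labelled replicate 4. Spp1 alone gave 939 of the 979.7 TPM in that library, and without Spp1 the cholangiocyte sum was highest in Myc-labelled replicate 1, at 54.5 TPM beside 40.5 TPM in Myc-labelled replicate 4. Kupffer cell markers, 7 of 7 below 0, summed to 516 to 1319 and 455 to 827 TPM, and endothelial markers, 8 of 8 below 0, to 120.3 to 181 and 82.0 to 159 TPM. Marco alone gave 618 of the 1319 TPM of the Kupffer cell sum in control replicate 2. Without Marco that sum was highest in control replicate 4, at 753 TPM. Erythroid markers, 3 of 3 tested above 0, summed to 224 to 1136 and 466 to 1035 TPM. The 5 lymphoid markers were all below a mean of 1 TPM, and Ly6g, a defining neutrophil gene, stood at 0 to 0.348 TPM. At an unadjusted p under 0.05 there was 1 lower gene in the periportal list, Cps1, and 1 in the endothelial list, Stab2. Over all tested genes 0.597% were lower at that p. The part of these markers in the enzyme levels was not tested.

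**Figure D5:**
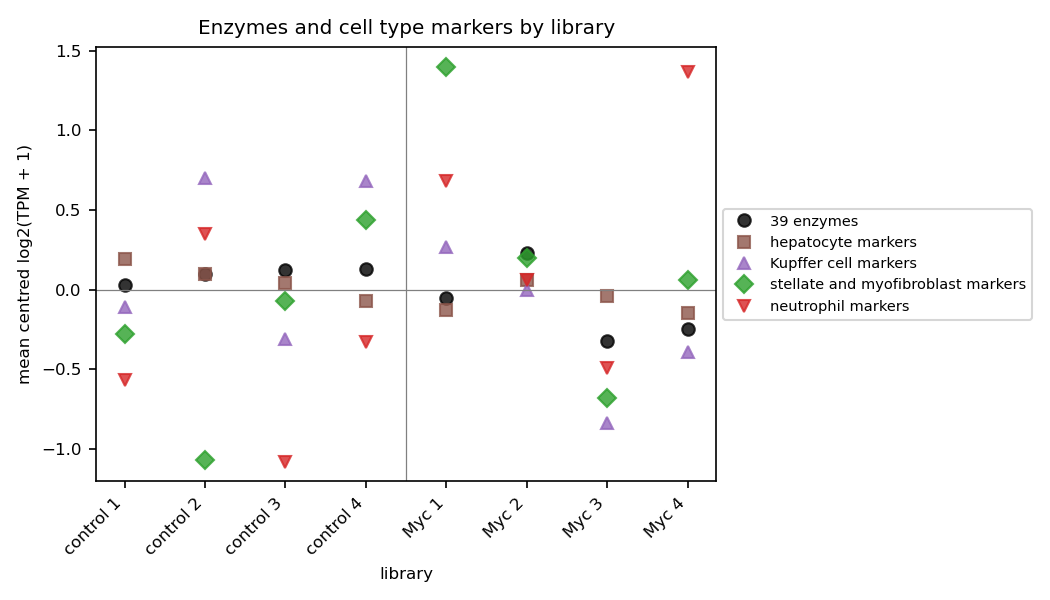
Mean centred log2(TPM + 1) (y axis) of the 39 enzymes and of 4 cell type marker lists in the 8 libraries (x axis, controls left of the line). The enzymes are lowest in Myc-labelled replicates 3 and 4, neutrophil markers are highest in Myc-labelled replicate 4 and stellate markers in Myc-labelled replicate 1.

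A further 59 genes of the same pathways, not among the 39, were read in the same fit. Of these 55 passed the filter, 41 had a log2 difference below 0 and 14 above it, and 0 passed the test (median -0.08, and 0 at an unadjusted p under 0.05). The 3 with the smallest p were Sardh, the sarcosine dehydrogenase, Dhtkd1, of lysine breakdown, and Dmgdh, the dimethylglycine dehydrogenase. Sardh stood at 192, 227, 307 and 287 TPM across the controls and at 198, 239.8, 121 and 207 TPM across the Myc-labelled libraries, and its lowest value was in Myc-labelled replicate 3 (log2 difference -0.42 ± 0.24, which was -0.21 without it). Dhtkd1 stood at 30.8, 42.9, 38.0 and 35.5 TPM across the controls and at 36.6, 38.9, 23.1 and 12.1 TPM across the Myc-labelled libraries, with Myc-labelled replicate 4 lowest (log2 difference -0.52 ± 0.32, which was -0.18 without it). Dmgdh stood at 269, 272, 442 and 255 TPM across the controls and at 280.4, 272, 137 and 255 TPM across the Myc-labelled libraries, with its highest value in control replicate 3 and its lowest in Myc-labelled replicate 3 (log2 difference -0.40 ± 0.27, which was -0.22 without the first and -0.16 without the other).

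By pathway, the median log2 difference of these further genes was -0.21 for tryptophan, -0.05 for phenylalanine and tyrosine, -0.15 for serine, glycine and choline, and -0.06 for the branched chain. It was -0.01 for methionine and sulfur, where 4 of 8 were below 0, against 6 of 6 of the methionine enzymes among the 39. The difference between these counts was not tested. Bhmt2, the paralogue of Bhmt, stood at 228, 165, 233 and 206 TPM across the controls and at 216, 199, 137 and 148 TPM across the Myc-labelled libraries (log2 difference -0.26 ± 0.21).

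Of 11 regulators of these genes, transcription factors and hormone receptors, 7 had a log2 difference below 0 and 0 passed the test. The 3 with the smallest p were Ppargc1a, a coactivator induced by fasting, Nr1h4, the bile acid receptor FXR, and Foxo1, a factor restrained by insulin. Ppargc1a stood at 5.41, 7.11, 4.71 and 4.66 TPM across the controls and at 5.09, 11.0, 4.63 and 7.23 TPM across the Myc-labelled libraries and was highest in Myc-labelled replicate 2, as Got1 was. Nr1h4 stood at 143, 61.8, 67.4 and 88.1 TPM across the controls and at 102, 99.1, 60.7 and 44.0 TPM across the Myc-labelled libraries, highest in control replicate 1 and lowest in Myc-labelled replicate 4. Foxo1 stood at 8.76, 12.3, 9.38 and 10.2 TPM across the controls and at 11.6, 10.5, 11.6 and 10.2 TPM across the Myc-labelled libraries, within a 1.41-fold range.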

How the data were processed

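Liver RNA of 4 control and 4 Myc-labelled mice was read from 1 deposited file per library, each with 53816 gene IDs. Libraries came from an mRNA kit, per the labels' protocols. The submitters' processing notes name HISAT2 (an aligner), StringTie (a quantifier) and mm10, without versions. The deposited TPM of each library sums to 1000000, per the file headers and values. FPKM and coverage, a signal not scaled for depth, stand beside it, per the file headers. No source used here gives the strand setting.

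Coordinates are those of the files. Repeated rows of a gene ID (10 to 15 per library) were summed. Two-sided tests used limma 3.58.1 in R 4.3.3, with trend and robust moderation, on log2(TPM + 1). Genes entered at a mean of 1 TPM or more, and the script was tested on simulated data. Python 3.11.15, pandas 2.3.3 and numpy 2.4.6 did the rest. Alternatives were the pseudocount (0.1 and 5), the filter, scaling, FPKM, array weights, the variance model, the omission of single libraries and a replicate block. The enzymes and lists were chosen with earlier results of these data known. Named with every value were, per pathway, the 2 enzymes with the highest mean and the one with the smallest p (24 genes), and 3 further pathway genes and 3 regulators by smallest p. Every value is also given for Gnmt, Ahcy, Cbs, Mccc2, Sdsl and Bhmt2, which this rule did not select. Leaving out libraries for further pathway genes, and Spp1, Alb, Dcn, Marco and Cyp2e1 from their lists, was added after the data were seen. Promoters came from RefSeq, where 32 of 39 enzymes matched. The listed marker Tf was not matched by symbol.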

Additional observations from a re-analysis of the deposited data

Results flagged for a closer look

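Single libraries stood far from the other 3 of their group in 6 of 78 groups of 4 values, judged by Dixon's ratio on the log2 scale, where chance gives about 3.9. Myc-labelled replicate 4 was low for Hal at 99.0 TPM, against 144 to 152 TPM in the other 3, and for Cdo1 at 1409.6 TPM, against 2476 to 2666 TPM. Myc-labelled replicate 3 was low for 2 branched chain enzymes, Mccc1 at 11.1 TPM, against 22.7 to 24.7 TPM, and Hibch at 24.1 TPM, against 48.7 to 50.4 TPM. Myc-labelled replicate 2 was high for Gnmt at 3095 TPM, against 2186 to 2300.2 TPM. Control replicate 1 was high for Aadat at 79.8 TPM, against 51.3 to 52.6 TPM.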

How the results depend on the processing

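In 19 other settings 0 of 39 enzymes passed the test, with a smallest adjusted p of 0.896. Over all genes the calls stayed at 0 except for 1 lower gene with array weights. The median log2 difference of the enzymes was -0.19 and moved to -0.020 with array weights; it was -0.28 to -0.10 on leaving out 1 library. Enzymes below 0 numbered 27 to 38 on leaving out 1 library. The percent difference of the enzymes' summed level was -25.6 to -13.7 on leaving out 1 library, and that of the methionine sum -32.1 to -19.2; the methionine sums of the groups stayed apart with FPKM and with median-of-ratios scaling. Enzymes lower at an unadjusted p under 0.05 numbered 0 to 5, with 5 without Myc-labelled replicate 2. Hal kept its direction in all 19 settings (limma adjusted p 0.896 to 1.0), with log2 differences of -0.52 to -0.32, and Bhmt with -0.88 to -0.48. With array weights the log2 difference became 0.084 for Aadat, 0.14 for Aass, 0.051 for Bckdha, 0.098 for Cbs, 0.034 for Cth, 0.068 for Hgd, 0.16 for Hibch, 0.0035 for Hpd, 0.18 for Kynu, 0.045 for Mccc1 and 0.070 for Sds. With median-of-ratios scaling the log2 difference became -0.017 for Aldh4a1. With quantile normalization the log2 difference became 0.019 for Sds. With FPKM in place of TPM the log2 difference became 0.025 for Sds. Without control replicate 2 and Myc-labelled replicate 3 together, a setting added after the data were seen, the log2 difference became 0.21 for Aass, 0.16 for Hibch, 0.033 for Kynu, 0.12 for Mccc1, 0.029 for Mccc2 and 0.14 for Sds. On leaving out 1 library the sign also turned for 17 enzymes, Aass from -0.16 to 0.091, Agxt from -0.057 to 0.27, Aldh4a1 from -0.16 to 0.20, Amt from -0.11 to 0.37, Bckdha from -0.15 to 0.015, Cbs from -0.26 to 0.029, Csad from -0.50 to 0.45, Got1 from -0.076 to 0.59, Haao from -0.25 to 0.031, Hgd from -0.42 to 0.052, Hibch from -0.13 to 0.22, Kynu from -0.20 to 0.16, Mccc1 from -0.20 to 0.16, Mccc2 from -0.24 to 0.024, Sds from -0.15 to 0.15, Sdsl from -0.47 to 0.15 and Tat from -0.27 to 0.068. The cause of these turns was not tested, and none of these genes passed the test in either direction. With a replicate block 0 of 39 enzymes passed, 34 of 39 were below 0 and the median was -0.19. Same-numbered libraries correlated at 0.128, -0.058, 0.065 and 0.07, and differently numbered ones at -0.206 to 0.222. These values do not show that the numbers pair the libraries, and so few libraries cannot exclude it. At these depths and with 4 libraries a group, the 95% interval of an enzyme reached 0.51 log2 units (median) to either side, and only 7 enzymes had an interval that extends past a 2-fold change.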
